A study of Mus musculus and blank sample with 91 samples.

Results

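The samples described here are the 17 fecal samples taken from mice with experimental autoimmune encephalomyelitis (EAE) at 14, 19 and 29 dpi (days post-immunization), out of 89 samples in the count table of the series. They were chosen by treatment and day alone, and each was related to the clinical score and the body weight that the authors recorded for the same mouse on the same day. The 6 mice carry the numbers 588, 589, 591, 593, 594 and 595, and each gave a sample at all 3 days except mouse 594, which has none at 14 dpi. All were female C57BL/6 mice that received the myelin peptide MOG35–55 emulsified in Complete Freund's Adjuvant (CFA) and injections of pertussis toxin. Mice of the series that received the adjuvant alone (CFA) or nothing (naïve) all had a score of 0, so severity varied among EAE mice only. Mice lived in small groups, and a treatment was given to a whole cage. The labels do not tie mice to cages, so differences between mice and between cages cannot be told apart.

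In EAE, used to model multiple sclerosis, T cells primed against myelin invade the central nervous system, and the mice develop a paralysis that ascends from the tail. The clinical score grades that paralysis, and sick mice lose weight as they eat and drink less. The bacteria of the mouse gut include fermenters of dietary fibre such as Ruminococcaceae and Lachnospiraceae, many of which release butyrate. They also include Verrucomicrobiaceae, whose member Akkermansia feeds on mucus, and Lactobacillaceae, which turn sugars into lactic acid. Severity and weight loss differ from mouse to mouse after the same immunization, and the comparisons below ask whether the microbiota differed along with them.

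Each value is a share of the counts of amplicon sequence variants (ASVs) of the bacterial 16S rRNA gene, summed by family or genus. Such percents are parts of a whole, so a lower amount of one group and a higher amount of the others cannot be told apart. The median of the total counts was 76374, the lowest 15279 and the highest 102194. The lowest totals were those of mouse 595 at 19 dpi (15279 counts, 25 ASVs) and mouse 589 at 14 dpi (17326 counts, 37 ASVs), and the other 15 samples held at least 42864 counts. Where a taxon had no counts in a sample, its share could be as high as 3 counts of the total, which is 0.0196% at the lowest total and 0.00294% at the highest, for counting error only. At 29 dpi, totals rose with the score (Pearson's r = 0.913, exact permutation test, p = 0.00556, Spearman's rho = 0.928, exact permutation p = 0.0167, n = 6, r = 0.823 without the 2 mice farthest from the median score). At 19 dpi the same r was 0.165 (exact permutation test, p = 0.733, n = 6). The part of depth in the relations with score at 29 dpi was not tested. Diversity was also computed at equal depth, but by a draw from counts of ASVs that had already been inferred. This draw cannot show what depth did to the inference of ASVs.

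The 6 mice followed different courses of disease. Mice 591 and 593 had a score of 0 at 14 dpi, when mouse 588 had a score of 1, mouse 589 of 3 and mouse 595 of 3.5. At 19 dpi mouse 591 still had a score of 0, mice 588 and 589 had a score of 2, mouse 595 had 3.5, and mice 593 and 594 had 4. At 29 dpi all 6 mice were affected and scores lay close together, from 2.25 in mouse 589 through 2.75 in mouse 588 and 3 in mice 591 and 595 to 3.5 in mouse 594 and 3.75 in mouse 593. A score of 0 was therefore found in 3 samples of 2 mice. Here unaffected means a score of 0 and affected a score above 0, whatever the weight. Mouse 593 went from 0 to 4 between 14 and 19 dpi, and mouse 591 from 0 to 3 between 19 and 29 dpi.

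The order of the mice by weight was not that by score. At 14 dpi the mice weighed 19.4 g (591), 19.2 g (593), 18.9 g (588), 15.8 g (595) and 14.5 g (589), so the 2 mice with the highest scores were the lightest. At 19 dpi the weights were 15.0 g in mouse 591, 15.2 g in mouse 593, 15.5 g in mouse 594, 15.6 g in mouse 588, 16.1 g in mouse 589 and 16.7 g in mouse 595, so the mouse with a score of 0 was the lightest. Mouse 591 had lost 4.4 g since 14 dpi with no change in score, whereas mouse 589 had gained 1.6 g and mouse 595 had gained 0.9 g. At 29 dpi the weights were 17.5 g (593), 17.8 g (588), 17.9 g (591), 18 g (594), 18.2 g (589) and 19.9 g (595), and mouse 595 stood apart from the others. At 19 dpi weight and score had r = 0.320 (exact permutation test, p = 0.544, adjusted p = 0.614, rho = 0.0883, exact permutation p = 0.933) and at 29 dpi they had r = -0.231 (exact permutation test, p and adjusted p = 0.614, rho = -0.406, exact permutation p = 0.444), with 6 mice at each day. Without the 2 mice farthest from the median score, r was 0.0808 and -0.0528. The sign turned at 19 dpi without mouse 591 (r = -0.232) and at 29 dpi without mouse 593 (r = 0.0504). The lightest mice were thus the most affected at 14 dpi but not at 19 dpi.

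**Figure D1:**
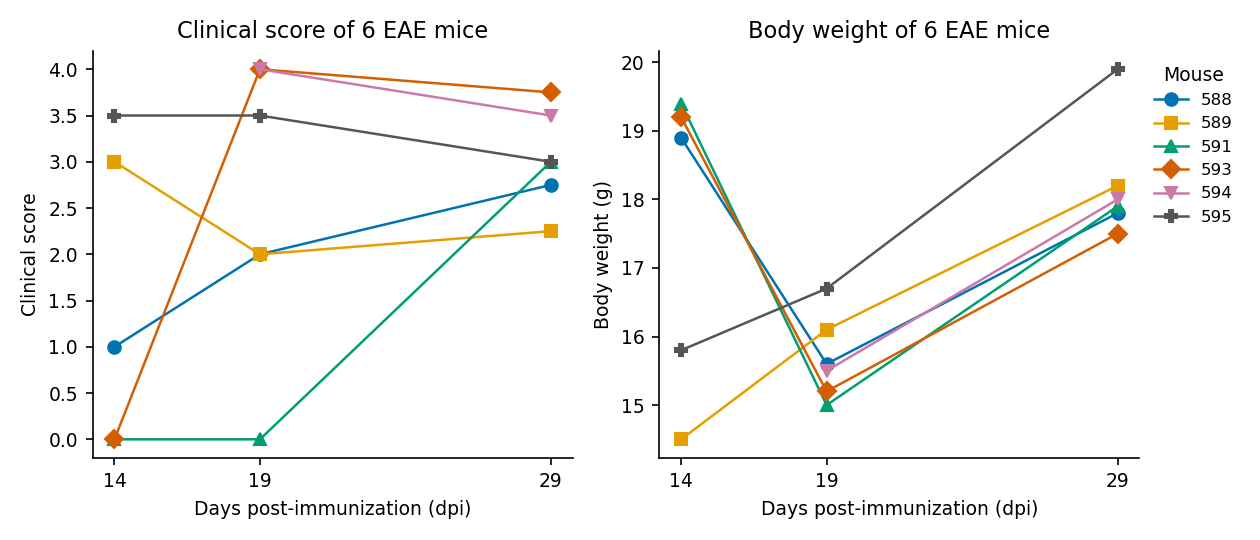
Clinical score (left) and body weight in g (right) of each of the 6 EAE mice against days post-immunization, with 1 line per mouse. Mice 589 and 595, with scores of 3 and 3.5 at 14 dpi, were then the lightest at 14.5 g and 15.8 g, and at 19 dpi they were the heaviest at 16.1 g and 16.7 g.

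At 14 dpi, the 3 affected mice held more Ruminococcaceae and less Clostridiaceae and Lachnospiraceae than both unaffected mice. Ruminococcaceae, which ferment plant fibre, made up 27.7% of the counts in mouse 588, 46.6% in mouse 589 and 25.5% in mouse 595, against 16.1% in mouse 591 and 19.4% in mouse 593. Clostridiaceae, spore-forming anaerobes represented mainly by Clostridium_sensu_stricto_1, made up 4.28%, 4.61% and 3.69% in the affected mice and 9.79% and 9.32% in the unaffected mice. Lachnospiraceae, a family rich in butyrate producers, made up 12.0%, 11.3% and 4.94% against 15.8% and 18.4%. These families are described because the groups did not overlap in them, so the lack of overlap is no test. Among the genera of the fibre degraders, Ruminococcus reached 3.80%, 14.5% and 3.06% in the affected mice and 2.39% and 2.66% in the others, and Ruminiclostridium reached 9.34%, 12.3% and 4.37% against 3.21% and 3.00%. Ruminococcus-DTU089, listed with them, went the other way, with counts in the unaffected mouse 593 alone (0.0821%). The butyrate producers did not share a direction. Roseburia made up 0.744% in mouse 588 and had no count in mice 589 and 595, against 1.69% and 4.16% in mice 591 and 593. Anaerostipes stood at 2.45% and 6.22% in mice 588 and 589, with no count in mouse 595, against 0.881% and no count, and Eubacterium at 1.67%, 4.95% and 3.12% against 1.89% and 3.79%.

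Of the 17 families with counts in at least 3 of the 17 samples, 4 (23.5%) did not overlap between affected and unaffected mice at 14 dpi, 1 of them higher (5.88%) and 3 lower (17.6%) in affected mice. The fourth was Anaeroplasmataceae, wall-less anaerobes, with at most 0.710% in affected and at least 0.781% in unaffected mice. Of 51 genera, 13 (25.5%) did not overlap. With 3 mice against 2, an exact permutation test of the difference in means cannot give a p below 0.1, and that value was reached by Clostridiaceae (difference -5.37 percentage points, exact permutation p = 0.1) and Lachnospiraceae (-7.69 percentage points, exact permutation p = 0.1). For Ruminococcaceae the difference was 15.5 percentage points (exact permutation test, p = 0.2). Mouse 589, the lightest at 14 dpi, had no Akkermansia, no Prevotella and no Anaeroplasma in its sample of 17326 counts, and it held the most Ruminococcaceae.

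At 19 dpi a single mouse, 591, was unaffected, and it did not stand outside the affected mice in any of the 4 families. It held 1.83% Anaeroplasmataceae, below mouse 593 (1.97%) and above the other 4 mice (at most 0.809%). Mouse 591 held 7.10% Clostridiaceae at 19 dpi, above mice 588, 589, 593 and 594 (1.04%, 4.96%, 5.33% and 4.17%) and below mouse 595 (13.0%). Its 17.4% Ruminococcaceae and 14.6% Lachnospiraceae lay inside the ranges of the 5 affected mice, from 12.5% to 31.5% and from 4.10% to 35.6%. Akkermansia was highest in mouse 591 at that day, with 14.5% against 3.38% to 11.4% in the other 5 mice. Muribaculum, a Bacteroidales genus that degrades polysaccharides, was also highest there with 8.64%, while mice 589 and 594 held 3.58% and 3.32% and the other 3 mice had no counts. Prevotella, another Bacteroidales genus, was absent from mice 591 and 595 at 19 dpi and lay between 8.75% and 10.9% in the other 4 mice.

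Over all 3 days, the difference between samples with a score above 0 and a score of 0 was estimated after centring on day, and whole courses of scores were exchanged among the 5 mice with 3 samples, so that the samples of a mouse stayed together. This allows 20 arrangements and no p below 0.05. The difference was 9.91 percentage points for Ruminococcaceae (exact permutation test, p = 0.2), -6.05 for Verrucomicrobiaceae (exact permutation test, p = 0.5), 4.14 for Prevotellaceae (exact permutation test, p = 0.15), -3.74 for Clostridiaceae (exact permutation test, p = 0.2) and -2.98 for Muribaculaceae (exact permutation test, p = 0.2). For Lactobacillaceae it was 1.17 percentage points (exact permutation test, p = 0.3), with 5 samples at 19 dpi between 0% and 1.70% and mouse 589, with a score of 2, at 6.34%. In this exact permutation test 0 of 17 families and 0 of 51 genera reached the smallest p (0% of each), and the lowest adjusted p among them was 0.85. The Shannon metric differed by -0.142 (exact permutation test, p = 0.7) and the number of ASVs by -9.18 (exact permutation test, p = 0.8). Without mouse 589 the difference was 5.71 for Ruminococcaceae, -2.19 for Verrucomicrobiaceae and 0.464 for Lactobacillaceae, without mouse 595 it was -10.6 for Verrucomicrobiaceae, and without mouse 591 it was 0 for Muribaculaceae. The difference of the Shannon metric lay between -0.296 (without mouse 591) and -0.00411 (without mouse 589). Leaving out mouse 591 turned the difference for Porphyromonadaceae from 0.731 to -3.54 percentage points and that for Erysipelotrichaceae from -2.21 to 3.80. Without mouse 591, the only sample with a score of 0 was that of mouse 593 at 14 dpi. With only 2 mice that ever had a score of 0, these differences could not be told from the spread between mice.

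**Figure D2:**
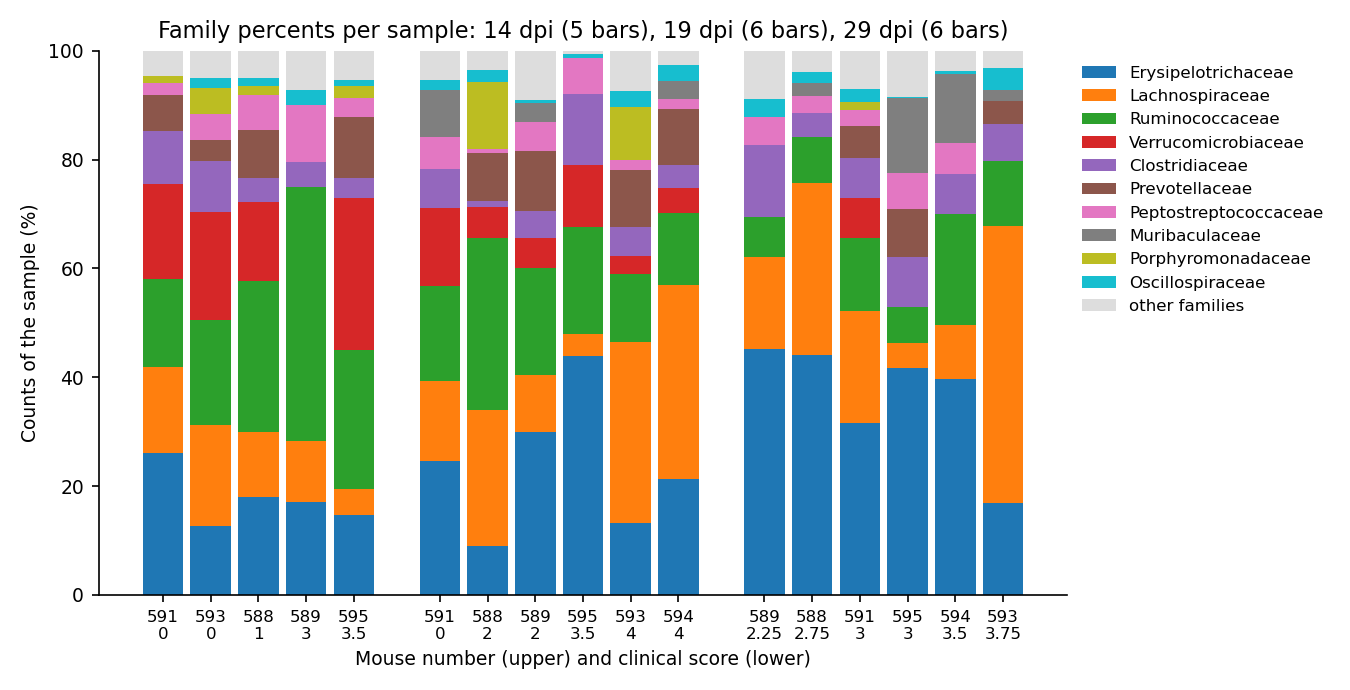
Percent of counts of the 10 families with the highest mean over the 17 samples, as stacked bars for each sample, with the samples of each day ordered by clinical score. At 14 dpi the bars of Ruminococcaceae are taller in mice 588, 589 and 595 (25.5% to 46.6%) than in mice 591 and 593, and at 29 dpi mouse 593 stands out with 50.9% Lachnospiraceae.

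Within 19 dpi, the genus whose percent followed the score most closely was Ruminococcus, a degrader of cellulose and other plant fibre, which was lower in mice with higher scores. It made up 5.42% in mouse 591 (score 0), 5.41% and 5.15% in mice 588 and 589 (score 2), 3.57% in mouse 595 (score 3.5) and 3.47% and 2.71% in mice 593 and 594 (score 4). The 3 mice with the highest scores thus lay below the other 3. The relation had r = -0.884 (exact permutation test, p = 0.0222, adjusted p = 0.689, n = 6) and rho = -0.971 (exact permutation p = 0.0111), with r = -0.994 without the 2 mice farthest from the median score. In centred log ratios, which are log counts minus the mean log count of the sample's genera, r was -0.651 (exact permutation test, p = 0.167). At 14 dpi, Ruminococcus had instead been higher in affected mice, and the sign of its relation with score was thus not the same at both days. Next came Muribaculum (r = -0.739, exact permutation test, p = 0.117), whose r was -0.123 without mouse 591, and Ruminiclostridium (r = -0.723, exact permutation test, p = 0.106). Ruminiclostridium held 5.03% in mouse 591, 7.84% and 6.15% in mice 588 and 589, 1.51% in mouse 594, and had no counts in mice 593 and 595. Of 31 genera tested at 19 dpi, 0 passed after adjustment (0%) and 1 had an unadjusted p under 0.05 (3.23%). Of 13 families, 0 had an unadjusted p under 0.05 (0%), and the strongest were Muribaculaceae, which are all Muribaculum here, and Verrucomicrobiaceae (r = -0.650, exact permutation test, p = 0.178, adjusted p = 0.876). The r of Verrucomicrobiaceae was -0.0539 without mouse 591, so the r of both families rested on the unaffected mouse.

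Within 29 dpi, when scores spanned only 2.25 to 3.75, Lachnospira followed the score most closely. This genus, a fermenter of pectin, made up 2.25% in mouse 589 (score 2.25), 1.47% in mouse 588 (score 2.75), 0.525% and 0.517% in mice 591 and 595 (score 3), 0.213% in mouse 593 (score 3.75), and had no counts in mouse 594 (score 3.5). The relation had r = -0.917 (exact permutation test, p = 0.00833, adjusted p = 0.300, n = 6), rho = -0.928 (exact permutation p = 0.0167), and r = -0.907 without the 2 mice farthest from the median score. In centred log ratios r was -0.763 (exact permutation test, p = 0.0722). At 19 dpi the genus was at 1.14% in mouse 594 and 0.288% in mouse 593, which had the highest scores, and at no more than 0.00933% in the others, so the order was not that of 29 dpi.

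The other 2 genera nearest to the score at 29 dpi were Peptococcus-rc4-4, the genus that made up all Peptococcaceae, and a group of unnamed Lachnospiraceae. Peptococcus-rc4-4 stood at 1.79% in both mice 588 and 589, at 1.18% in mouse 595, and between 0.473% and 0.778% in mice 591, 593 and 594 (r = -0.824, exact permutation test, p = 0.0389, adjusted p = 0.467, rho = -0.841, exact permutation p = 0.0444). Unnamed Lachnospiraceae made up 5.91% in mouse 593, between 0.347% and 1.18% in mice 588, 591, 594 and 595, and had no counts in mouse 589 (r = 0.772, exact permutation test, p = 0.0389, adjusted p = 0.467, rho = 0.899, exact permutation p = 0.0278). Without mouse 593, the highest, r was 0.880 (exact permutation test, p = 0.05). Centred log ratios gave r = 0.851 for unnamed Lachnospiraceae (exact permutation test, p = 0.0139). For Peptococcus-rc4-4 they gave r = -0.764 (exact permutation test, p = 0.075). Mouse 593, with the highest score at 29 dpi, also had the most Lachnospiraceae of all 17 samples (50.9%), 11.7% Roseburia and no Romboutsia or Lactobacillus. Mouse 594, with the next highest score, held 9.89% Lachnospiraceae and no Roseburia, so the 2 most affected mice differed widely from each other. Of 36 genera tested at 29 dpi, 0 passed after adjustment (0%) and 3 had an unadjusted p under 0.05 (8.33%), and of 14 families 0 passed and 1, Peptococcaceae, had an unadjusted p under 0.05 (7.14%). Erysipelotrichaceae, the most abundant family at this day and almost all Turicibacter, came next, with 45.3% in mouse 589, 44.1% in mouse 588, 31.6% and 41.7% in mice 591 and 595, 39.8% in mouse 594 and 16.8% in mouse 593 (r = -0.750, exact permutation test, p = 0.0861, adjusted p = 0.552, rho = -0.899, exact permutation p = 0.0278). Its r was -0.496 without mouse 593 and -0.188 without the 2 mice farthest from the median score. Total counts moved with the score at this day, as given above.

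With body weight, Peptococcus-rc4-4 had the lowest p at 19 dpi. It made up 1.2% in mouse 591 (15.0 g), 1.10% in mouse 593 (15.2 g), 0.862% in mouse 594 (15.5 g), 0.964% in mouse 588 (15.6 g), and had no counts in mice 589 and 595 (16.1 g and 16.7 g). The relation had r = -0.935 (exact permutation test, p = 0.00556, n = 6), rho = -0.928 (exact permutation p = 0.0222) and r = -0.910 without the 2 mice farthest from the median weight. It did not pass adjustment over 31 genera (adjusted p = 0.172) or, as Peptococcaceae, over 13 families (adjusted p = 0.0722). At 29 dpi, the heaviest mouse 595 held 1.18%, inside the range of the others. Mouse 595 at 19 dpi is the sample with the lowest total, at which 3 counts are 0.0196%.

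Anaeroplasma was also lower in heavier mice at 19 dpi, with 1.83% and 1.97% in mice 591 and 593, 0.809%, 0.504% and 0.664% in mice 594, 588 and 589, and no counts in mouse 595 (r = -0.873, exact permutation test, p = 0.0333, adjusted p = 0.321, rho = -0.886, exact permutation p = 0.0333). At 29 dpi mouse 595 was the heaviest and held 2.05%, the highest value of that day. Ruminococcaceae_UCG-010 had counts in only 3 mice at 19 dpi, 0.136% in mouse 589, 0.132% in mouse 594 and 0.393% in mouse 595 (r = 0.902, exact permutation test, p = 0.0250, adjusted p = 0.321, r = 0.424 without the 2 mice farthest from the median weight). Of 31 genera, 0 passed adjustment and 3 had an unadjusted p under 0.05 (9.68%), and of 13 families 0 passed and 2 had an unadjusted p under 0.05 (15.4%).

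**Figure D3:**
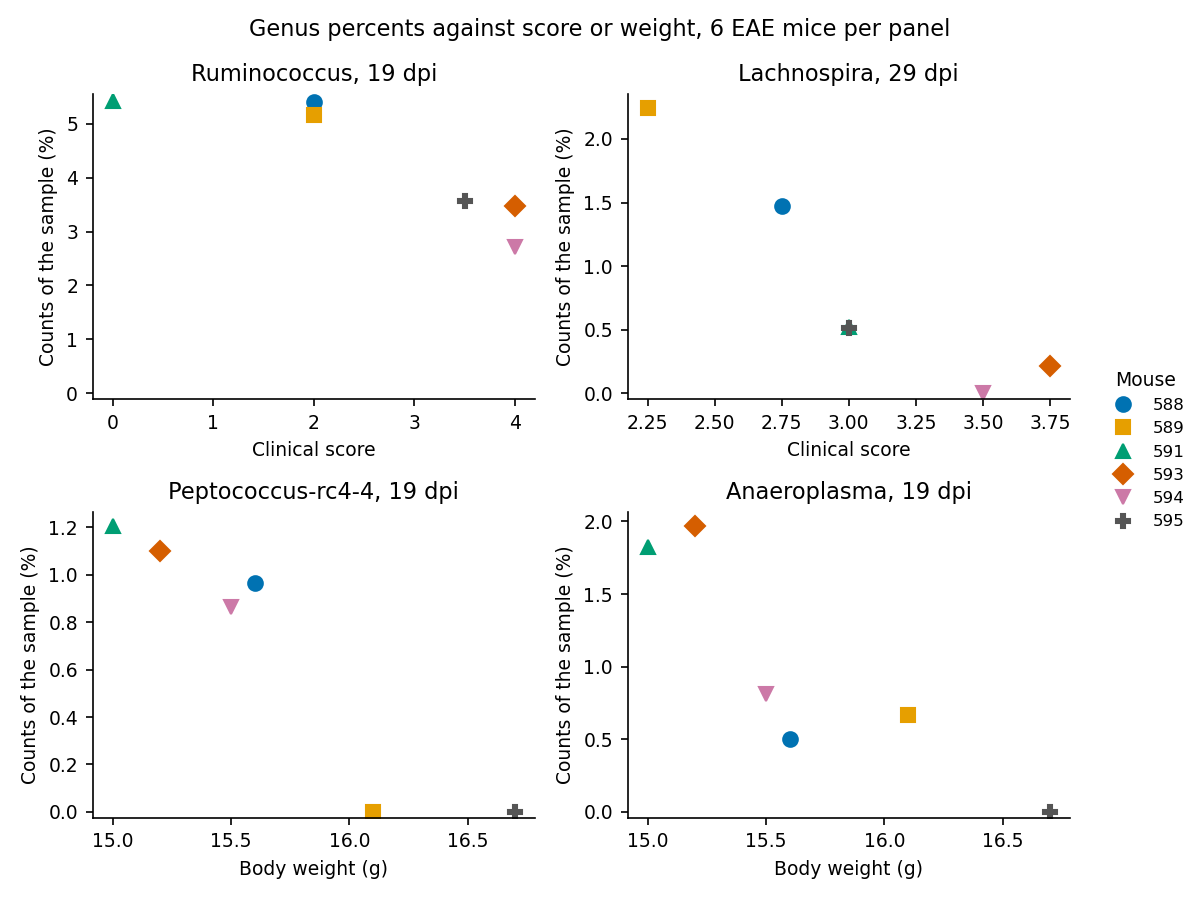
Percent of counts of 4 genera against clinical score (upper, Ruminococcus at 19 dpi and Lachnospira at 29 dpi) or body weight in g (lower, Peptococcus-rc4-4 and Anaeroplasma at 19 dpi), with 1 point per EAE mouse. All 4 genera were lower at higher values of the trait, with r from -0.873 to -0.935, and in none did the adjusted p fall under 0.05.

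At 29 dpi no relation with weight had an adjusted p under 0.05, and 0 of 36 genera and 0 of 14 families had an unadjusted p under 0.05 (0%). Romboutsia, a Peptostreptococcaceae anaerobe, ranged from no counts in the lightest mouse 593 to 6.63% in the heaviest mouse 595 (r = 0.737, exact permutation test, p = 0.103, adjusted p = 0.442, rho = 0.886, exact permutation p = 0.0333). Lachnospiraceae ranged from 50.9% in mouse 593 to 4.63% in mouse 595 (r = -0.708, exact permutation test, p = 0.153, adjusted p = 0.356, rho = -0.943, exact permutation p = 0.0167). Within that family, Lachnospiraceae_NK4A136-Clostridium XlVa was lower in every heavier mouse, with 11.2% in mouse 593, 7.28% in mouse 588, 5.67% in mouse 591, 3.55% in mouse 594, 2.13% in mouse 589 and 1.76% in mouse 595 (r = -0.695, exact permutation test, p = 0.136, adjusted p = 0.442, rho = -1, exact permutation p = 0.00278). Its order was thus the exact reverse of that of weight, while with Spearman's rho in place of r no genus passed adjustment either. Acutalibacter had no counts in mice 594 and 595 and between 0.732% and 1.27% in the other 4 mice (r = -0.700, exact permutation test, p = 0.05, adjusted p = 0.442).

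Alpha diversity was not in the order of the score at 19 dpi, and at 29 dpi its values were larger in mice with higher scores, without passing adjustment. At 19 dpi the Shannon metric was 3.91 in mouse 591, 3.97 in mouse 588, 4.27 in mouse 589, 2.88 in mouse 595, 3.96 in mouse 593 and 4.64 in mouse 594 (r with score = -0.0214, exact permutation test, p = 0.994). At 29 dpi it was 3.32 in mouse 589, 4.24 in mouse 588, 4.78 in mouse 591, 4.37 in mouse 595, 4.44 in mouse 594 and 4.84 in mouse 593 (r = 0.830, exact permutation test, p = 0.0278, adjusted p = 0.207, rho = 0.899, exact permutation p = 0.0278). The number of ASVs at 29 dpi went from 41 in mouse 589 to 155 in mouse 593 (r = 0.844, exact permutation test, p = 0.0389, adjusted p = 0.207), with 157 in mouse 591. The relation rested on few mice: without the 2 mice farthest from the median score, r was 0.203 for Shannon, 0.0271 for Simpson and 0.418 for the number of ASVs. After all samples were drawn down to 15279 counts, r for Shannon was 0.829. The draw followed the inference of ASVs and hardly moved the metric, for example from 3.32 to 3.31 in mouse 589 at 29 dpi. Of 16 relations of 4 metrics with score or weight at 19 or 29 dpi, 0 passed adjustment (0%) and 3 had an unadjusted p under 0.05 (18.8%). Primer variants, which are ASVs that differ only in the primer sequence, were also merged, and 0 relations passed. Merging gave r = 0.792 for Shannon with score at 29 dpi (exact permutation test, p = 0.0639). It moved r for Shannon with weight from -0.577 to -0.776 at 19 dpi and from -0.179 to -0.612 at 29 dpi.

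Averaged over 19 and 29 dpi, r of alpha diversity with weight was below 0 in EAE mice, and 2 of the 4 metrics passed adjustment. The mean Shannon metric was 4.40 in mouse 593 (mean weight 16.35 g), 4.35 in mouse 591 (16.45 g), 4.10 in mouse 588 (16.7 g), 4.54 in mouse 594 (16.75 g), 3.79 in mouse 589 (17.15 g) and 3.62 in mouse 595 (18.3 g). The 2 heaviest mice thus had the 2 lowest values. After centring on day, r was -0.845 for Shannon (exact permutation test, p = 0.0153, adjusted p = 0.0361 over the 4 metrics, n = 6) and -0.920 for Simpson (exact permutation test, p = 0.0181, adjusted p = 0.0361), while for the inverse Simpson metric (r = -0.728, exact permutation test, adjusted p = 0.0556) and the number of ASVs (r = -0.695, exact permutation test, adjusted p = 0.100) the adjusted p missed the threshold. Spearman's rho was -0.657 for both Shannon and Simpson (exact permutation p = 0.175). The adjustment covered the 4 metrics with weight alone, while that within days covered 16 relations with score or weight. Adjustment of the means over both traits together was not made.

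The relation with weight rested on mice 589 and 595. Without the 2 mice farthest from the median weight, r fell to -0.0858 for Shannon and -0.0189 for Simpson. Leaving out 1 mouse at a time kept r for Shannon between -0.927 and -0.737, and the adjusted p was under 0.05 only without mouse 594. Without mouse 588, 589, 591, 593 or 595, the adjusted p was 0.0667, 0.144, 0.100, 0.117 and 0.189 for both Shannon and Simpson (exact permutation test, n = 5). In ASVs as deposited, the low mean of mouse 595 came from 19 dpi, when it held 25 ASVs, and that of mouse 589 from 29 dpi, when it held 41 ASVs. With primer variants merged, the 2 mice instead had the lowest Shannon values at both days. Mouse 595 then stood at 1.99 and 2.29 at 19 and 29 dpi, and mouse 589 at 2.67 and 2.13. Mean total counts had r = -0.606 with mean weight (exact permutation test, p = 0.237). After the draw to equal depth, which has the limit given above, r for Shannon was -0.845. In the 6 naïve mice, whose mean weights spanned 18.25 to 19.65 g, the same r was -0.0908 for Shannon and -0.167 for Simpson (exact permutation test, p = 0.919 and 0.876), and no test compared this r with that of EAE mice. With the mean score, r for Shannon was 0.232 (exact permutation test, p = 0.625).

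**Figure D4:**
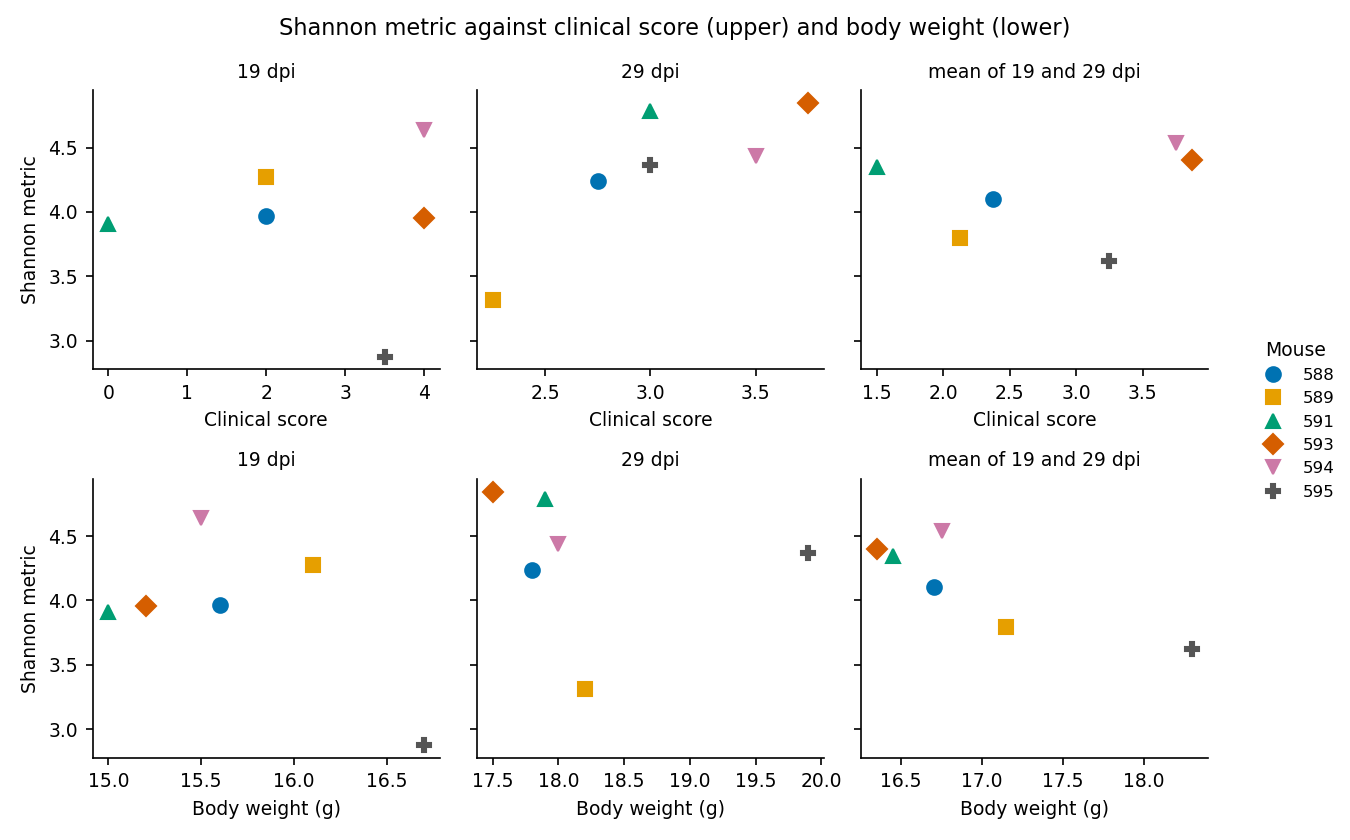
Shannon metric of 6 EAE mice against clinical score (upper row) and body weight in g (lower row) at 19 dpi, at 29 dpi and as means of both days, with 1 point per mouse. In the panel of mean weight, mice 589 and 595 lie lowest at 3.79 and 3.62, and the other 4 mice lie between 4.10 and 4.54.

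Of the 17 families averaged in the same way, Oscillospiraceae, Erysipelotrichaceae and Peptostreptococcaceae had the lowest p with the weight of the mouse. Oscillospiraceae, here the genus Oscillibacter, were lower in heavier mice (r = -0.869, exact permutation test, p = 0.0167, adjusted p = 0.205, rho = -0.886, exact permutation p = 0.0333). Erysipelotrichaceae, almost all of them Turicibacter, were higher in heavier mice (r = 0.855, exact permutation test, p = 0.0264, adjusted p = 0.205, rho = 0.943, exact permutation p = 0.0167). Peptostreptococcaceae were also higher (r = 0.795, exact permutation test, p = 0.0361, adjusted p = 0.205), with r = 0.297 without the 2 mice farthest from the median weight. Turicibacter made up 43.9% and 41.5% of the counts in mouse 595 and 13.2% and 16.8% in mouse 593 at 19 and 29 dpi, the mice with the highest and the lowest mean weight. These 3 families, with an unadjusted p under 0.05, were 17.6% of those tested, and 0 passed adjustment (0%). Lachnospiraceae had an r as large in size as that of Peptostreptococcaceae, but a higher p (r = -0.796, exact permutation test, p = 0.0625, adjusted p = 0.266). Its r was -0.452 without the 2 mice farthest from the median weight. With the mean score, Mogibacteriaceae/Anaerovoracaceae came first (r = 0.897, exact permutation test, p = 0.0250, adjusted p = 0.425), a family with counts in 5 of 17 samples and at most 0.395%.

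Counts of all 17 samples were then fitted together, with day in the model, by the quasi-likelihood test of edgeR. No genus or family had an adjusted p under 0.05 with score, with weight, or with status (a score above 0 against 0). This was 0% of 51 genera and of 17 families in each of 6 fits. Errors were wide, so large differences could have been missed. The log2 change with status was, for example, 1.80 ± 2.14 for Lactobacillus and 1.67 ± 3.41 for Prevotella (SE). An unadjusted p under 0.05 was found for 5 genera with score (9.80%), 1 with weight (1.96%) and 2 with status (3.92%), and for 2 families with score (11.8%), 0 with weight (0%) and 0 with status (0%). These fits take the samples of a mouse as independent. With the mouse as a replicate block, and in limma voom with an estimated correlation of 0.155 to 0.174 within a mouse for genera and of 0.0472 to 0.0609 for families, the count was also 0 in each fit. DESeq2 called 4 genera and 1 family with score and 8 genera and 2 families with status, but 0 with weight. All of these taxa had counts in 3 to 8 of the 17 samples, and where a taxon has no counts in one group its fitted difference is no bound.

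The genera with the lowest p in edgeR were rare ones. Tyzzerella-Clostridium XlVb was found in 3 samples, at 1.10% and 0.249% in mice 593 and 594 at 19 dpi and at 0.444% in mouse 593 at 29 dpi, which are samples with scores of 3.75 and 4. Its log2 change per unit of score was 3.05 ± 0.72 (SE, edgeR adjusted p = 0.170), and per g of weight it was -1.25 ± 0.39 (SE, edgeR adjusted p = 0.445). Ruminiclostridium_C-Clostridium IV was also found in 3 samples, at 0.396% and 0.0878% in mouse 591 at 19 and 29 dpi and at 0.248% in mouse 589 at 29 dpi (-2.47 ± 0.74 per unit of score, SE, edgeR adjusted p = 0.170). Ihubacter-Anaerovorax, the only genus of Mogibacteriaceae/Anaerovoracaceae here, had counts in 5 samples with scores from 2.75 to 3.75 (2.26 ± 0.83 per unit of score, SE, edgeR adjusted p = 0.293), and without mouse 595 its slope was 0.38, against 1.25 with the mouse as a replicate block. With status, the lowest p belonged to Neglecta, Ruminiclostridium_C-Clostridium IV and Lachnoclostridium, with counts in 5, 3 and 6 samples (edgeR adjusted p = 0.617 for each), and among families to Mycoplasmataceae, Mogibacteriaceae/Anaerovoracaceae and Clostridiaceae (edgeR adjusted p = 0.761 for each). Among families, Mogibacteriaceae/Anaerovoracaceae (2.46 ± 0.82, SE, edgeR adjusted p = 0.203) and Christensenellaceae (1.53 ± 0.69, SE, edgeR adjusted p = 0.407) came first with score. With weight it was Clostridiaceae (0.26 ± 0.16 per g, SE, edgeR adjusted p = 0.999) and Ruminococcaceae (-0.20 ± 0.13 per g, SE, edgeR adjusted p = 0.999), with slopes of 0.43 and -0.03 without mouse 593. Among genera Ruminococcus followed Tyzzerella-Clostridium XlVb with weight, at -0.45 ± 0.22 per g (SE, edgeR adjusted p = 0.999), or -0.24 without mouse 593.

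Genera listed by role gave no call in any edgeR or limma fit. DESeq2 called Erysipelatoclostridium-Clostridium XVIII with score and Mycoplasma with status, with counts in 3 and 4 samples. The list names 24 genera, of which 21 could be tested and Butyricicoccus, Dubosiella and Longibaculum/Candidatus Stoquefichus had no counts in these samples. With score, the log2 change was above 0 for 7 and below 0 for 14 of the 21, with a median of -0.09 per unit of score, against 26 and 25 of all 51 genera with a median of 0.01. With weight it was above 0 for 16 and below 0 for 5, with a median of 0.26 per g, against 30 and 21 of all genera with a median of 0.10. Among 7 butyrate producers, 3 were above and 4 below 0 with score, and none had an adjusted p under 0.988. Lactobacillus, the lactic acid genus, had a log2 change of 0.04 ± 0.68 per unit of score and 0.03 ± 0.48 per g (SE, edgeR adjusted p = 0.988 and 0.999), with counts in 15 of 17 samples. At 29 dpi it made up 4.78% and 4.66% in mice 591 and 595 (score 3), 3.79% and 1.64% in mice 589 and 588 (scores 2.25 and 2.75), 0.768% in mouse 594 and had no counts in mouse 593 (r with score = -0.636, exact permutation test, p = 0.197, adjusted p = 0.514). Turicibacter, the most abundant genus, had the smallest error, with -0.04 ± 0.13 per unit of score and 0.12 ± 0.12 per g (SE, edgeR adjusted p = 0.988 and 0.999).

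Whether the slope on weight differed between EAE mice and the other mice was tested for 61 genera in 52 samples of all 3 treatments at 14, 19 and 29 dpi. No genus passed (edgeR, 0%), and 5 had an unadjusted p under 0.05 (8.20%). The lowest p belonged to Tyzzerella-Clostridium XlVb, whose slope was lower in EAE mice by -1.74 ± 0.57 per g on the log2 scale (SE, edgeR adjusted p = 0.202). The sign of this difference turned to 0.35 with the mouse as a replicate block and to 0.44 in DESeq2. The next was Anaerotignum-Clostridium XlVb (-2.61 ± 0.92 per g, SE, edgeR adjusted p = 0.202).

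Some genera were found in the same mice at every day. Anaerostipes, a butyrate producer that can use lactate, was found in mouse 588 at 2.45%, 5.90% and 4.31% and in mouse 589 at 6.22%, 4.74% and 7.14% at 14, 19 and 29 dpi. Apart from 0.881% in mouse 591 at 14 dpi, no other sample held any count of it, so both mice stood above all others at every day. Both mice differed in score by 2 at 14 dpi and by 0.5 or less afterwards. Coprococcus/Eubacterium_F was found mainly in other mice, with counts at every sampled day in mice 591 (1.34%, 1.89% and 0.901%), 593 (2.69%, 2.77% and 0.625%) and 594 (1.01% and 0.676% at 19 and 29 dpi), with 0.343% in mouse 588 at 14 dpi, and with none in mice 589 and 595. Mouse 595 thus had no counts of either genus, and mice 588 and 591 held both at 14 dpi. Given day, Anaerostipes and Coprococcus/Eubacterium_F had the lowest p for a difference between mice (edgeR adjusted p = 0.347 and 0.452), and none of 51 genera passed (0%). Both were described after their values were seen, and Anaerostipes had too few mice with counts to be related to score within a day.

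Akkermansia, by contrast, was found in 4 of 5 mice at 14 dpi, in all 6 at 19 dpi and in 1 of 6 at 29 dpi (edgeR adjusted p = 0.237 for a difference between days given the mouse). At 14 dpi it was at 14.6% in mouse 588, 17.4% in mouse 591, 19.9% in mouse 593 and 27.8% in mouse 595, with no count in mouse 589. At 29 dpi only mouse 591 held it, at 7.33%, with a score of 3 like mouse 595, which had none. Mouse 591, the last with a score of 0, was the single mouse with Akkermansia at all 3 days. Its percent was 17.4%, 14.5% and 7.33% at scores of 0, 0 and 3.

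**Figure D5:**
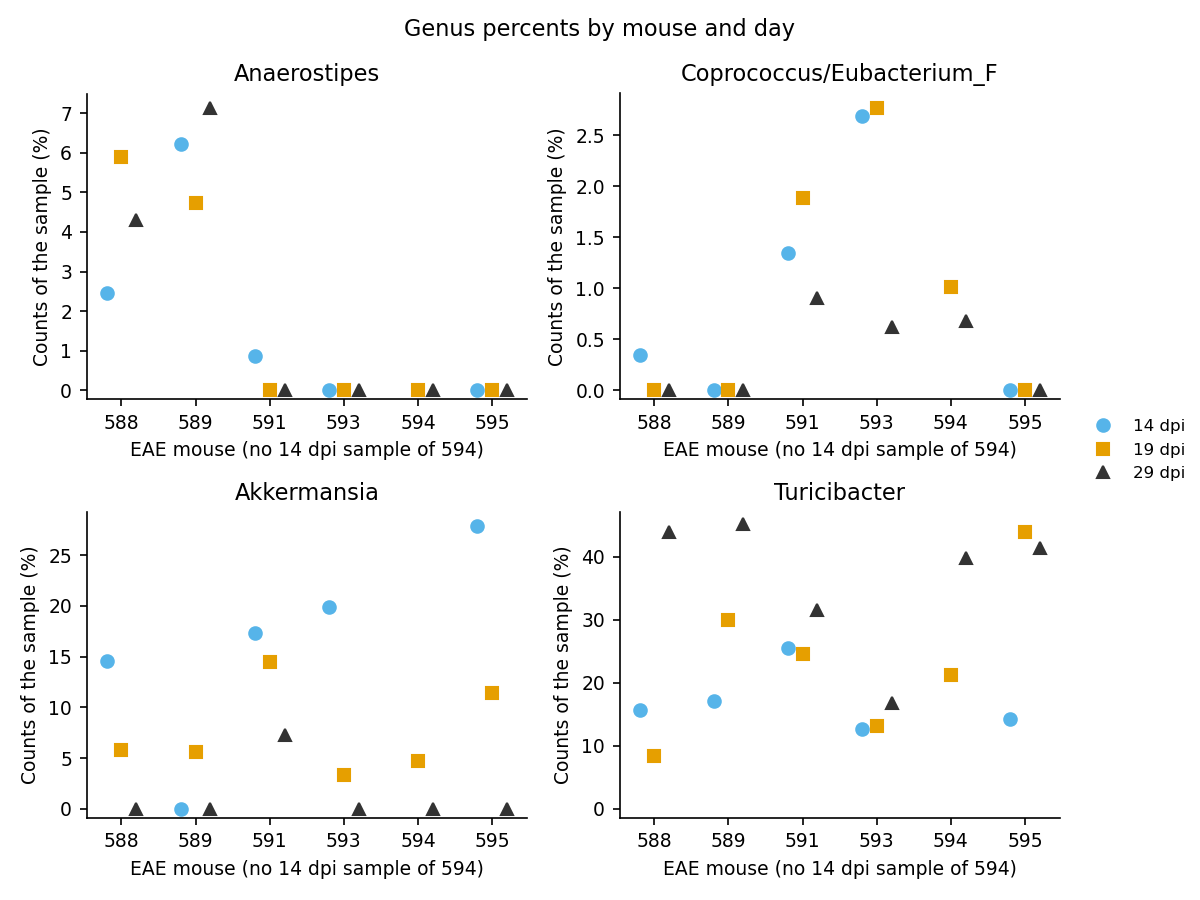
Percent of counts of 4 genera by EAE mouse, with 1 point per day (14, 19 and 29 dpi). Anaerostipes was found at every day in mice 588 and 589 (2.45% to 7.14%), and Akkermansia at 29 dpi in mouse 591 alone (7.33%).

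On average, samples of the same mouse were more alike than those of different mice between 14 dpi and the later days, although only 2 of 5 mice, 589 and 591, were each closest to themselves in both comparisons. The Bray-Curtis dissimilarity of genus percents, which runs from 0 for like samples to 1 for samples with nothing in common, averaged 0.399 within and 0.445 between mice from 14 to 19 dpi (exact permutation test, p = 0.0333, n = 5) and 0.484 within and 0.545 between mice from 14 to 29 dpi (exact permutation test, p = 0.00833, the smallest these 5 mice allow). Mouse 588, for example, lay at 0.561 from itself and at 0.391 to 0.565 from other mice between 14 and 29 dpi, and mice 593 and 595 also lay within the range of their distances to others. From 19 to 29 dpi it averaged 0.438 and 0.464 (exact permutation test, p = 0.601, n = 6). Mouse 591 changed least, with 0.311 from 14 to 19 dpi, 0.267 from 14 to 29 dpi and 0.353 from 19 to 29 dpi, in each case below its distance from every other mouse of the later day. Its score was 0, 0 and 3 at the 3 days. Mouse 593, whose score went from 0 to 4, changed by 0.413 from 14 to 19 dpi, and mouse 595, whose score stayed at 3.5, by 0.466.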

How the data were processed

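The authors amplified fecal DNA for the V3 and V4 regions of the 16S rRNA gene, inferred ASVs with DADA2 and deposited whole-number counts per ASV and sample, with family and genus names. Their deposited sample table gives each sample's clinical score and its weight in g. Groups, days and mouse numbers came from the labels. The same number marks the same mouse (the sample table numbers these mice differently but groups their samples alike), so samples are paired by mouse, and the estimated correlation within a mouse was 0.155 to 0.174 for genera.

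Counts were summed by name and divided by the total of the sample, and diversity was computed from counts as deposited. Pearson's r within 19 or 29 dpi was tested with a two-sided exact permutation test (smallest p 0.00139 with 6 mice), with Benjamini-Hochberg adjustment over the taxa of a day and a threshold of 0.05. Means per mouse over both days were centred on day. Tests covered the taxa found in 3 or more samples. Slopes on score or weight were tested with edgeR 4.0.16 (TMMwsp factors, day as a term), with limma 3.58.1 and DESeq2 1.42.0 as alternatives, in R 4.3.3, and other tests in Python 3.11.15 with SciPy 1.17.1. A CFA sample with a total of 0 was left out of the slope comparison. Scripts were tested on simulated data.

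Taxa were named from families and genera listed by role, from each day and trait (the 3 genera and 2 families with the largest absolute r) and from fits with no call (up to 3 taxa with the lowest p). Members and lists were chosen with earlier results of these data known. Alternatives were a centred log ratio (pseudocount 0.5), no filter, Spearman's rho, the change of weight, total counts only, merged primer variants, equal depth, the replicate block and leaving out each mouse. The mouse term, likeness within mice, naïve mice, diversity means at equal depth and the fits without samples under 20000 counts were added after seeing the data.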

Additional observations from a re-analysis of the deposited data

Results flagged for a closer look

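Values that stood apart from the other mice of a day were sought in 54 groups of 5 or 6 mice (weight, score, diversity and leading families), and 8 were found, where chance gives about 1 in 20 groups. The groups share mice and samples, and some percents are mostly zeros, so 8 of 54 is no test against that rate. At 14 dpi mouse 589 had 37 ASVs, against 107 to 132 in the others, in the sample of 17326 counts. At 19 dpi mouse 595 had a Simpson metric of 0.933, against 0.975 to 0.988, in the sample of 15279 counts. At the same day mouse 589 held 6.34% Lactobacillaceae, against at most 1.70% in the others, and mouse 588 held 31.5% Ruminococcaceae, against 12.5% to 19.5%. At 29 dpi mouse 595 weighed 19.9 g, against 17.5 g to 18.2 g, and mouse 589 had a Simpson metric of 0.952, against 0.982 to 0.991, in a sample of 62526 counts. Also at 29 dpi, mouse 591 held 1.44% Porphyromonadaceae, against at most 0.018%, and 7.33% Verrucomicrobiaceae, of which the other 5 mice had no counts.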

How the results depend on the processing

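Of 784 values recomputed for 83 results, 739 kept their direction and their side of the threshold. Nearly all results lay above the threshold from the start, so this count says little about how far their size moved. For example, r of Muribaculaceae with score at 19 dpi was counted as kept at -0.739 with all mice and -0.123 without mouse 591. In DESeq2 the number of calls moved from 0 to 4 genera and 1 family with score, to 8 genera and 2 families with status, and to 2 genera for the difference of slopes on weight, in taxa with counts in few samples, and the cause was not tested. With the mouse as a replicate block, limma voom, total counts only, no filter, each mouse left out, or the samples under 20000 counts left out (chosen after seeing the data), edgeR and limma called 0 taxa in every fit. The replicate block thus changed no call. It turned the slope difference of Tyzzerella-Clostridium XlVb from -1.74 to 0.35, as did DESeq2 (0.44), and with EAE and naïve mice only that of Ruminococcaceae_UCG-005 turned from -1.20 to 4.74.

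Leaving out 1 mouse at a time gave an r of score with weight from -0.232 to 0.589 at 19 dpi and from -0.720 to 0.0504 at 29 dpi. For the Shannon metric, r with score at 19 dpi went from -0.386 to 0.517 (0.0826 with primer variants merged), r with weight from -0.737 to 0.450 at 19 dpi and from -0.769 to 0.00996 at 29 dpi. For means per mouse, r with score went from -0.0398 to 0.599 for Shannon and from -0.124 to 0.513 for Simpson, and r with weight from -0.927 to -0.737 for Shannon and from -0.973 to -0.787 for Simpson. Of the differences with status, in percentage points, Erysipelotrichaceae went from -3.95 to 3.80, Eubacteriaceae from -0.687 to 0.301, Lachnospiraceae from -9.00 to 2.07, Oscillospiraceae from -0.0306 to 0.836, Peptostreptococcaceae from -0.476 to 2.15 and Porphyromonadaceae from -3.54 to 1.78. The log2 slope of Mycoplasmataceae on score went from -0.89 to 2.54. With 6 mice, and scores close together at 29 dpi, the number of animals limits these comparisons, and the samples of 15279 and 17326 counts limit the detection of rare taxa.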
